A study of Mus musculus with 6 samples.

Results

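The interleukins and the interleukin receptors outside the common gamma chain group were described as a gene family in the chromatin accessibility map of Beko cells. Members were all protein-coding genes of the GENCODE vM1 annotation whose symbol is Il followed by a digit, and 8 receptor genes of the gamma chain cytokines and their partners (Il2ra, Il2rb, Il2rg, Il4ra, Il7r, Il9r, Il15ra and Il21r) were left out. This gave 77 members of 22380 coding genes, of which 41 were classed as ligands, 34 as receptors and 2 as neither, the binding protein Il18bp and the amino acid oxidase Il4i1. Classes followed the symbol, with Il6st added to the receptors and the receptor antagonist Il1rn to the ligands. Soluble and membrane-bound receptors were not separated, so Il22ra2 counted as a receptor. Beko is a mouse pre-T leukemia cell line with constitutively active Notch, and the cells of all 6 libraries were of this line. ATAC-Seq, in which a transposase cuts accessible DNA, was done on 3 libraries of cells given the γ-secretase inhibitor (GSI) DAPT and on 3 libraries of cells given the solvent DMSO, both for 24 h. GSI blocks the cleavage that sets the active part of Notch free. The labels give the DAPT concentration as 10 mg/ml and the study's methods as 10 μg/ml. The values below come from a single list of 32527 peaks, which the authors merged over the 6 libraries. Since it records positions only, a peak is either present or absent, no value has a replicate error, and the members were not compared between GSI and DMSO. Intervals given for shares are 95% Wilson intervals, which cover counting error only and treat genes as independent.

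Interleukins are small secreted proteins by which leukocytes and tissue cells signal to each other. Most act through a receptor of paired chains on the target cell. Most receptor chains pass the signal to Janus kinases (JAKs) and STAT transcription factors, whereas the receptors of the IL-1 and IL-17 families use adaptor proteins such as Myd88 and Traf3ip2. In T cells, many interleukin genes are kept silent until the cell is activated and has taken on an effector fate, while a set of receptors is present before activation. Accessible chromatin at a gene start is a common feature of transcribed genes, but an accessible start does not by itself show transcription, and RNA was not measured in these libraries.

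The sequences below show what lay under the peaks at member starts. They are the 200 bases at the centre of the peak for both ligands and for the 3 receptors with the widest peaks at a start, on the mm9 build, and capitals mark matches, on either strand, to 6 short motifs that are spelled out further below.
Il34, chr8:113329693-113329892, + strand: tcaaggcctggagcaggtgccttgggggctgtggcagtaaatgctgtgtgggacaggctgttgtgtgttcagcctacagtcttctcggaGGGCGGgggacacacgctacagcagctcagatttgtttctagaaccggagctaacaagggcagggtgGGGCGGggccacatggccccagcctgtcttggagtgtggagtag
Il16, chr7:90803820-90804019, + strand: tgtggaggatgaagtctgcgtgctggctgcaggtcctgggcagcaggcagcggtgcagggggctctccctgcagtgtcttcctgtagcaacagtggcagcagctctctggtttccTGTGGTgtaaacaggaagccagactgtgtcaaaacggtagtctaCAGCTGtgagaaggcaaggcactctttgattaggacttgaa
Il12rb2, chr6:67325700-67325899, + strand: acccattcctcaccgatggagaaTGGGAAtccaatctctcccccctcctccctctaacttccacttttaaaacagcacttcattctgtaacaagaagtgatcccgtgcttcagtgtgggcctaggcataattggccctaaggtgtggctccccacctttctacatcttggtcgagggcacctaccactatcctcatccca
Il27ra, chr8:86566316-86566515, + strand: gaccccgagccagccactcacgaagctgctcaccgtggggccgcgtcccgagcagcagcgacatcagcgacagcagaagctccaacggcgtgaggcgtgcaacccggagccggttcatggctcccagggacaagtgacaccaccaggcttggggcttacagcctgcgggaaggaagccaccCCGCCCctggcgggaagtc
Il3ra, chr14:15178324-15178523, + strand: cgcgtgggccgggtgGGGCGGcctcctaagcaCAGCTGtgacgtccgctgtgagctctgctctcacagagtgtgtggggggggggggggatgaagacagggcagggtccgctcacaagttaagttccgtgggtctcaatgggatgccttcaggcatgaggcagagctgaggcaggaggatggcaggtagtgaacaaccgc
The Il34 stretch held 2 matches to GGGCGG, and the Il27ra and Il3ra stretches held 1 each. The Il12rb2 stretch held a match to TGGGAA, the core of the site bound by RBPJ, through which Notch acts on DNA.

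The peaks away from every annotated start are represented by the widest ones in the windows of the ligands and of the receptors. They are shown in the same way.
Il10, chr1:132919427-132919626, + strand: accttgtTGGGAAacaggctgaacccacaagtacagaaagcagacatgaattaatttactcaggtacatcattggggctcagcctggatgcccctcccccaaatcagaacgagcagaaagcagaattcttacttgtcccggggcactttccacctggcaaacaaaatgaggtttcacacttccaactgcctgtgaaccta
Il5, chr11:53550863-53551062, + strand: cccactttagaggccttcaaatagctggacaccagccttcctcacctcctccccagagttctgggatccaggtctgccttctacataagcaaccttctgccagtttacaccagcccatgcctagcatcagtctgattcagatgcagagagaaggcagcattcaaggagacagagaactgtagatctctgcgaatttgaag
Il20ra, chr10:19412191-19412390, + strand: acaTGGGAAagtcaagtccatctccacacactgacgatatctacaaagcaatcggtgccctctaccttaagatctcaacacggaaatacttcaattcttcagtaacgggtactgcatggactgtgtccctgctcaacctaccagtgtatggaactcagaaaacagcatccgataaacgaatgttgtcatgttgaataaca
Il6ra, chr3:89675142-89675341, + strand: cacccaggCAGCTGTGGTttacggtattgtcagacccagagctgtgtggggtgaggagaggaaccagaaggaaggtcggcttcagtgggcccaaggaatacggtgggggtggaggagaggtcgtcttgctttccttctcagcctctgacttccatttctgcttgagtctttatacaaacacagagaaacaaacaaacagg
The Il10 stretch lay in an intron and the Il5 stretch downstream of the gene. The Il20ra stretch lay upstream, and that of Il6ra in the last coding exon and the intron before it. In the Il6ra stretch the matches to CAGCTG and TGTGGT overlapped, so that they appear as 1 run of capitals.

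Few members had an accessible start. In 10 of the 77 members an annotated start was met by a peak within 1 kb (13.0%, interval 7.21 to 22.3), against 10506 of the 22380 coding genes (46.9%). Of the ligands, 2 of 41 had such a peak (4.88%, interval 1.35 to 16.1). Of the receptors, 7 of 34 had one (20.6%, interval 10.3 to 36.8). Both intervals lay below the share of all coding genes, and the intervals of ligands and receptors overlapped.

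The 7 receptors with an accessible start came from 4 families. In the IL-10 receptor family these were Il10ra, the ligand-binding chain for IL-10, with a peak of 370 bp (chr9:45077029-45077398), and Il10rb, the chain shared by several cytokines of that family, with a peak of 726 bp (chr16:91406235-91406960). In the IL-6 and IL-12 family they were Il12rb2, the signaling chain of the IL-12 receptor, and Il27ra, the specific chain of the IL-27 receptor. The Il12rb2 peak measured 1251 bp (chr6:67325174-67326424), and a second peak of 265 bp lay over a start inside the gene (chr6:67289552-67289816). The Il27ra peak measured 1062 bp (chr8:86565885-86566946). In the IL-17 family, Il17ra, the chain common to most IL-17 receptors, had a peak of 687 bp (chr6:120413032-120413718), and Il17rd, also known as Sef, had one of 487 bp (chr14:27852011-27852497). The last was Il3ra, the IL-3 binding chain, with a peak of 780 bp (chr14:15178034-15178813). The Il3ra peak ended 196 bp upstream of the start, whereas each of the other 6 receptors had a start inside the peak. The Il10rb peak also lay inside the gene model of Ifnar2, though not within 1 kb of another gene's start.

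The 2 ligands with a peak at a start were Il16, which encodes a precursor whose C-terminal part attracts CD4+ cells, and Il34, a ligand of the CSF1 receptor. Neither belongs to the large interleukin families. The Il16 peak of 513 bp (chr7:90803663-90804175) lay 90061 bp into the gene model, over the start of shorter transcripts that the annotation does not list as protein-coding. In the RefSeq annotation, 1 of 3 Il16 starts lay inside this peak. The Il34 peak of 571 bp (chr8:113329507-113330077) also lay at the start of the antisense gene Gm15895, so that it could not be assigned to Il34 alone. Thus the remaining 39 ligands, including Il2, Il4, Il10, Il17a and Il7, had no peak within 1 kb of a start. Il4i1 was the only one of the 2 remaining members with a peak, of 1343 bp (chr7:52070947-52072289), but this peak also covered the starts of Atf5 and Nup62. The median width of the widest peak at a start was 542 bp in ligands and 726 bp in receptors, and 926 bp over all coding genes with such a peak.

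Just outside the 1 kb limit were Il20rb, a chain of the IL-19, IL-20 and IL-24 receptors, with the nearest peak at 1011 bp, and Il17rb, the IL-25 receptor chain, at 1150 bp. Il12rb1, the chain shared by the IL-12 and IL-23 receptors, followed at 1546 bp and Il17rc at 1970 bp. All 4 were receptors, and with a limit of 2 kb the receptor share was 32.4% while the ligand share stayed at 4.88%. These were not all near misses of a receptor's own first start. The Il20rb distance ran to a start inside the gene, and its start in the RefSeq annotation lay 25749 bp from the nearest peak. The Il17rb peak lay 875 bp from the start of Chdh, and the Il17rc peak lay inside Il17re.

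Starts of members were rarely CpG-rich. For this class the start was the 5′ end of the gene, whichever start had the peak. It was called CpG-rich when GC made up 50% or more of the 1 kb around it. In addition, CpG dinucleotides had to reach 0.6 or more of the number that base composition predicts (the CpG ratio). The class thus need not describe the start with the peak, and the Il16 peak lay 90061 bp from the 5′ end. Only 9 members (11.7%) had a CpG-rich start, against 44.2% of coding genes. These were Il17d among the ligands, Il4i1, and 7 receptors (Il17ra, Il17rb, Il17rd, Il1rap, Il28ra, Il3ra and Il6ra). Among members with a CpG-rich start, 4 of 9 had a peak (44.4%, interval 18.9 to 73.3), compared with 76.2% of all coding genes of that class. Among members with a CpG-poor start, 6 of 68 had a peak (8.82%, interval 4.11 to 17.9), compared with 23.8%. In the CpG-poor class 2 of 40 ligands (5%) and 4 of 27 receptors (14.8%, interval 5.92 to 32.5) had a peak. The CpG-poor receptors with a peak were Il10ra, Il10rb, Il12rb2 and Il27ra, and with the 200 bp to either side of the start in place of 1 kb, none of the receptors with a peak was CpG-poor.

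**Figure D1:**
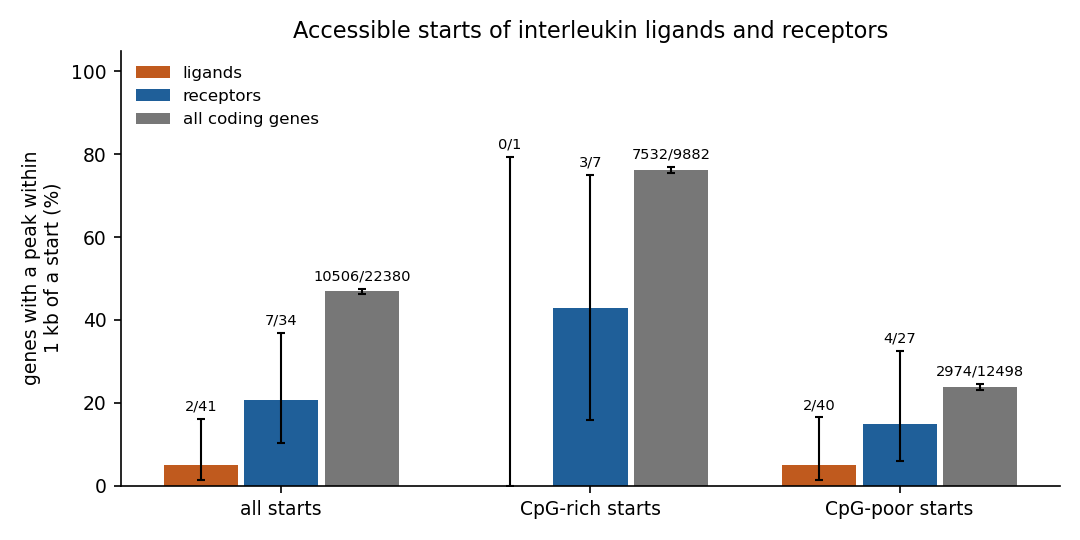
Share of genes (%) with a peak within 1 kb of a start, for ligands, receptors and all coding genes, over all starts and by CpG class of the start. Bars give the share, lines the 95% Wilson interval and labels the number of genes. The ligand and receptor bars stood at 4.88% and 20.6% over all starts, against 46.9% for coding genes.

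Grouped by family, accessible starts were found in 4 receptor families and, apart from Il16 and Il34, in no ligand family. In the IL-1 family, 0 of 10 ligands (interval 0 to 27.8%) and 0 of 9 receptors (interval 0 to 29.9%) had a peak at a start. Of the IL-6 and IL-12 family, 0 of 7 ligands and 2 of 9 receptors had one, and of the IL-10 family 0 of 7 ligands and 2 of 7 receptors. Of the IL-17 family, 0 of 6 ligands and 2 of 5 receptors had one. The type 2 and beta chain group, which holds Il3, Il5 and Il13, had 0 of 3 ligands and 1 of 4 receptors. The gamma chain ligands Il2, Il4, Il7, Il9, Il15 and Il21 had none. For comparison, 6 of the 8 receptors that were left out had a peak at a start (75%, interval 40.9 to 92.9). Those without were Il2ra and Il21r, and the Il7r peak lay 991 bp from its start. The share of all coding genes, to be set beside these and the family counts, was 46.9%.

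Within the wider window of the gene plus 20 kb on both sides, members and other genes were closer. A peak lay in this window for 49 of 77 members (63.6%, interval 52.5 to 73.5), and for 70.1% of coding genes. The counts were 24 of 41 ligands (58.5%, interval 43.4 to 72.2) and 24 of 34 receptors (70.6%, interval 53.8 to 83.2). Both intervals included the share of all coding genes. The windows held 124 distinct peaks, 8 of them in the windows of several members and none in the windows of both a ligand and a receptor.

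The distance to the nearest peak showed the contrast between the start and its surroundings. The median distance was 15910 bp in ligands, 14478 bp in receptors and 2626 bp over all coding genes. The largest group of ligands, 16 of 41, had its nearest peak between 5 and 20 kb away (39.0%, against 12.6% of coding genes). Of the receptors, 13 of 34 had it within 5 kb (38.2%, against 53.8% of coding genes) and 10 of 34 over 100 kb away (29.4%, against 18.6%). The 13 were the 7 with a peak at a start and Il5ra, Il11ra1, Il12rb1, Il17rb, Il17rc and Il20rb. Of the 10 remote receptors, 8 belonged to the IL-1 family and the others were Il13ra1 and Il13ra2, the IL-13 binding chains on chromosome X. Il1rapl1 and Il1rapl2 also lie on chromosome X, which had 0.378 peaks per 100 kb. The lowest density of an autosome was 0.872, on chromosome 3. Il1r1, Il1rl1, Il1rl2, Il18r1 and Il18rap lie in a single cluster on chromosome 1 and share the same nearest peak, so they are not independent cases.

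**Figure D2:**
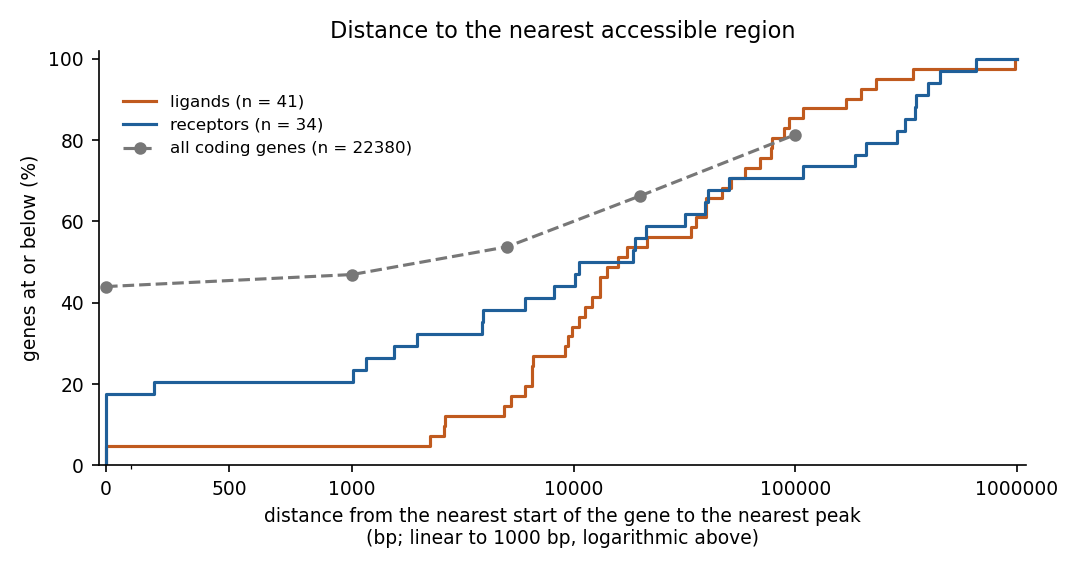
Cumulative share of genes (%) by the distance (bp, linear to 1000 bp and logarithmic above) from the start to the nearest peak. Steps are the 41 ligands and 34 receptors, and grey points joined by a dashed line give all coding genes at 5 distances. The ligand line stayed at 4.88% up to 2238 bp and then rose, while 44.0% of coding genes had a start inside a peak.

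The member farthest from any peak was Il7, the survival cytokine of early T cells that is made by stroma, at 980970 bp, and 2.57% of coding genes lay farther. Il15, also mainly a product of non-T cells, lay 341257 bp away. In between were Il1rapl1 at 651671 bp and Il1rapl2 at 451659 bp, both known for their role in neurons, the IL-18 receptor chains Il18rap at 398615 bp and Il18r1 at 348805 bp, and Il1rap, the shared chain of IL-1 receptors, at 347217 bp. Il1rap lacked a peak although its start was CpG-rich.

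The number of peaks per window had a median of 1 in ligands, 2 in receptors and 2 in all coding genes. At least 5 peaks lay in the windows of 7 of 34 receptors (20.6%) and of 0 of 41 ligands, compared with 13.7% of coding genes. Receptor windows were longer, with a median of 75.6 kb against 46.6 kb in ligands. Per 10 kb of window, ligands had 0.196 peaks and receptors 0.161, but the order turned to 0.330 in receptors when Il1rapl1 and Il1rapl2, whose gene models exceed 1 Mb, were left out. All coding genes had 0.255, with every long gene kept, so that 0.330 is not a like comparison. In the flanks alone, ligands had 0.226 peaks per 10 kb, receptors 0.353 and all coding genes 0.331.

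Il12rb1 had the most peaks, 11 in its window, of which 3 lay at starts of Mast3 and Arrdc2. None lay within 1 kb of an Il12rb1 start. Of the others, 3 lay upstream at 1546, 3235 and 4227 bp (the last chr8:73327722-73328121, 400 bp), and 2 lay in introns at 2702 and 11620 bp. Il12rb2, its partner chain, had 7 peaks, all at its starts or in its introns, so that both chains of the IL-12 receptor were among the 3 members with most peaks. Il17rb also had 7, of which 5 were upstream of its start. All 5 lay inside the neighbouring gene Chdh, 1 of them at its start, and another of the 7 lay at the start of Actr8.

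Of the IL-17 receptors, Il17ra, Il17rd and Il17re had 5 peaks each and Il17rc had 4. The Il17rd peaks included 3 in introns, 1 upstream and the peak at the start. For Il17re, which binds IL-17C, 4 of the 5 lay at starts of Jagn1 and Creld1. Il11ra1, the IL-11 receptor chain, had 6, but 5 of these lay at starts of other genes, which its 69.3 kb gene model spans. Because Il11ra1 and Il11ra2 are near-identical copies, and the authors kept 1 alignment per read, their peaks are uncertain. The same limit applies to the pair Il28a and Il28b. Their shared peak lay outside both genes, 5190 bp from the Il28b start, and whether that stretch is duplicated was not tested. With 4 peaks each followed Il12a, Il16, Il17rc, Il22ra1 and Il4i1. In Il12a, which encodes the p35 subunit of IL-12, none of the 4 lay at another gene's start, whereas in Il16 the other 3 all did.

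**Figure D3:**
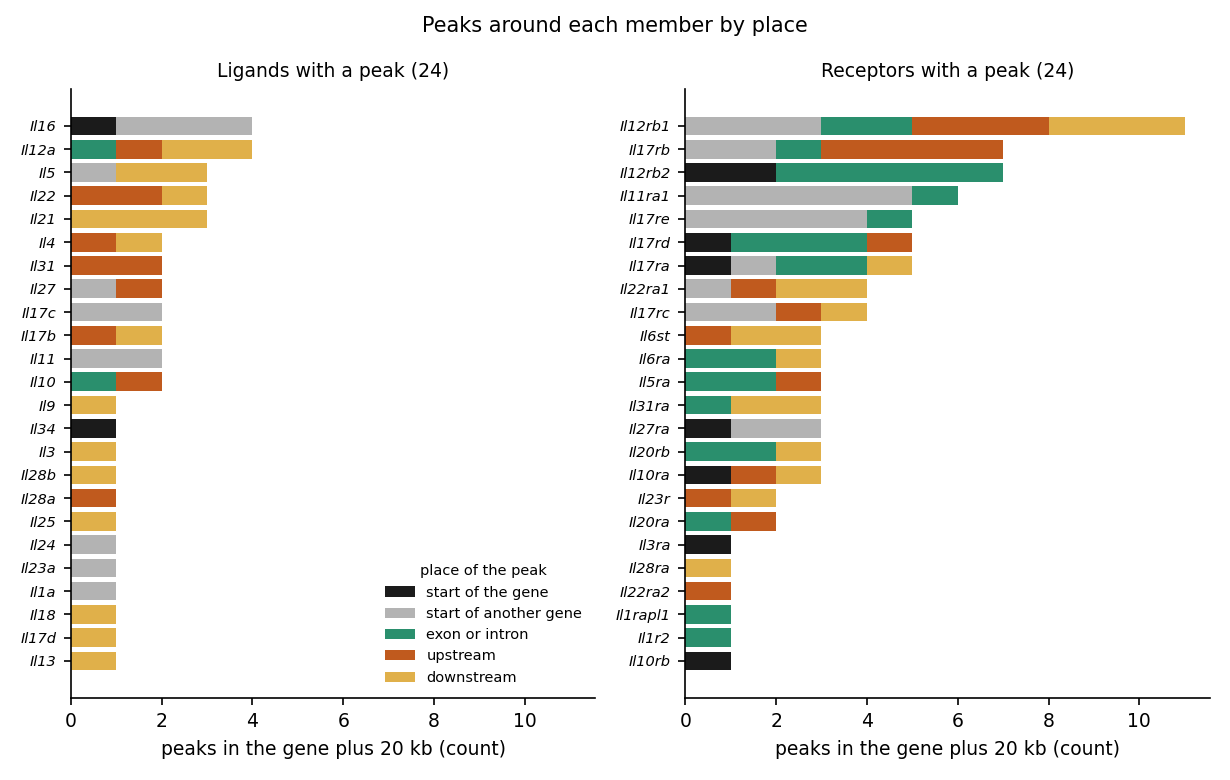
Number of peaks in the gene plus 20 kb for the 24 ligands and 24 receptors with at least 1 peak, one bar per gene, coloured by the place of the peak. Ligand bars reach 4 peaks and receptor bars 11.

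Most peaks in the windows of ligands lay outside the gene. In ligands 6 of 43 peaks (14.0%) lay inside the gene, which made up 25.1% of the windows. In receptors it was 37 of 85 (43.5%), with 74.2% of the windows, and without Il1rapl1 and Il1rapl2 36 of 84 (42.9%), with 49.7% of the windows. Over all coding genes 39.2% of peaks lay inside the gene, with 53.2% of the windows. Peaks in introns away from other starts were found in 2 ligands, Il10 and Il12a, with 1 each. The Il10 peak of 954 bp (chr1:132919050-132920003) lay 2628 bp downstream of the start, and the Il12a peak of 510 bp lay 2238 bp downstream (chr3:68497584-68498093). In 6 members the peaks in the window were all at starts of other genes. These were the ligands Il1a, Il11, Il17c, Il23a and Il24, and Il34, whose peak is shared with Gm15895. Thus 18 of 41 ligands (43.9%) and 24 of 34 receptors (70.6%) had a peak not at another gene's start. With all peaks counted, these shares were 58.5% and 70.6%. The matching share of all coding genes was not computed.

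Away from starts, the median member peak measured 454 bp and the median of all 21005 such peaks 465 bp. The widest was that of Il20ra, a receptor chain for IL-19, IL-20 and IL-24, with 1994 bp (chr10:19411294-19413287) at 19106 bp upstream of the gene. Of all peaks away from starts, 0.0667% were as wide. The Il6ra peak of 1101 bp (chr3:89674691-89675791) lay at the other end of its gene, 41293 bp from the start.

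Several members lie in clusters, and these differed in the number of peaks. The cluster of 6 IL-1 family ligands on chromosome 2 (Il1f8, Il1f9, Il1f6, Il1f5, Il1f10 and Il1rn) spans 198 kb and held no peak, also with 20 kb on either side. Chromosome 2 had 1.48 peaks per 100 kb. The IL-1 receptor cluster on chromosome 1, with Il1r2, Il1r1, Il1rl2, Il1rl1 (the IL-33 receptor), Il18r1 and Il18rap, spans 467 kb and held 1 peak. This peak of 313 bp lay in an intron of Il1r2, the decoy receptor for IL-1 (chr1:40173280-40173592), and chromosome 1 had 1.01 peaks per 100 kb. The cluster of Il17a and Il17f, the signature cytokines of Th17 cells, spans 53.4 kb and held no peak.

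The type 2 cytokine cluster with Il4, Il13 and Il5 on chromosome 11, a well studied locus of T helper cells, spans 122 kb. None of its 3 genes had a peak at its start, but 6 peaks lay in the cluster with 20 kb on either side. Chromosome 11 had 2.23 peaks per 100 kb, the highest density of an autosome. A peak of 430 bp lay between Il13 and Il4 (chr11:53441324-53441753), 6451 bp from Il13 and 9153 bp from Il4. Peaks of 428 and 953 bp lay in Rad50 (chr11:53470231-53470658) and at its start (chr11:53520190-53521142). The 3' part of Rad50 is known to hold the locus control region of these cytokines, and whether the 428 bp peak falls in it was not tested. Of the others, a peak of 618 bp lay in Kif3a, and peaks of 351 and 944 bp lay 14815 and 16195 bp downstream of the Il5 start.

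In the cluster of Il24, Il20, Il19 and Il10, the 3 peaks in the span lay in and upstream of Il10 and between Il19 and Il10. Il19 and Il20 had none in their windows. Il2 and Il21 together had 3 peaks, all downstream of Il21 at 13178 bp or more from its start, while the nearest peak to the Il2 start was at 78053 bp. This pair spans 112 kb, and chromosome 3 had 0.872 peaks per 100 kb. Il12rb2 and Il23r, neighbours on chromosome 6, had 9 peaks, of which 2 were in the window of Il23r, the specific chain of the IL-23 receptor. The 2 genes span 201 kb, and chromosome 6 had 1.09 peaks per 100 kb. Il22, a product of Th17 cells and innate lymphocytes, had 3 peaks, with the nearest at 9407 bp.

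**Figure D4:**
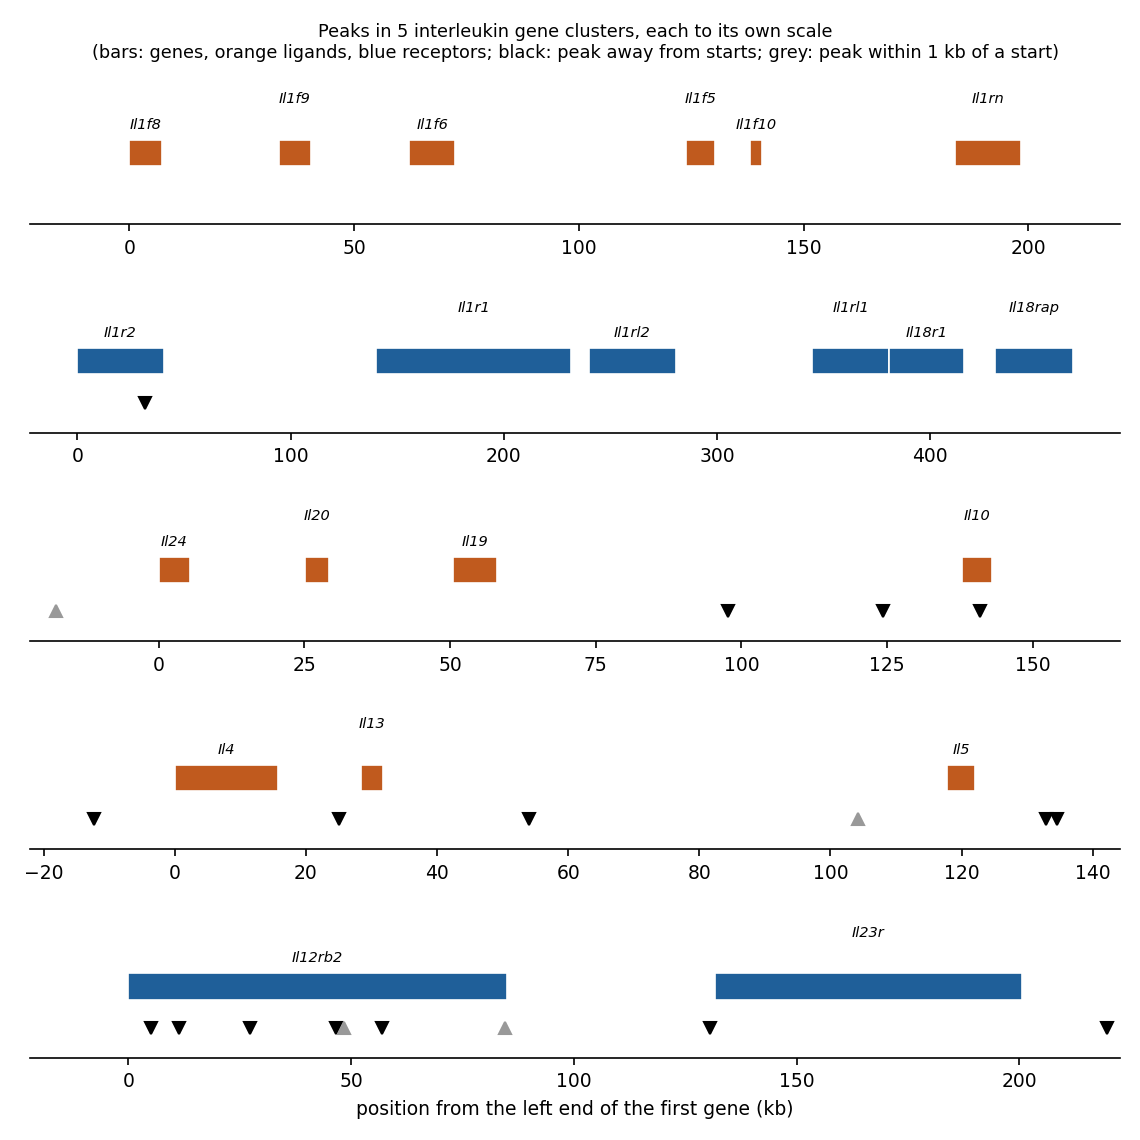
Maps of 5 clusters, each to its own scale, with position in kb from the left end of the first gene. Orange bars are ligand genes, blue bars receptor genes, black triangles peaks away from starts and grey triangles peaks within 1 kb of any annotated start. The IL-1 ligand cluster has no peak and the IL-1 receptor cluster has 1, whereas the map of Il12rb2 and Il23r has 9.

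Some gene models of this annotation begin at another place than those of RefSeq. RefSeq promoters (build GRCm38.p6) of 61 members could be placed on mm9 by an exact match, and with either annotation 9 of 34 receptors (26.5%) and 2 of 41 ligands (4.88%) had a peak at a start, against 47.6% of coding genes. The 2 receptors gained were Il6st, which encodes gp130, the signal transducer shared by IL-6 family cytokines, and Il5ra, the IL-5 binding chain. The RefSeq start of Il6st lay 10938 bp upstream of the GENCODE model, inside a peak of 787 bp (chr13:113253918-113254704), and that of Il5ra lay 3928 bp upstream, inside a peak of 856 bp (chr6:106698960-106699815). The 300 bases of each RefSeq promoter are shown 5′ to 3′ on the strand of the gene, at their place on mm9, since the receptor count turns on them.
Il6st, chr13:113254028-113254327, + strand: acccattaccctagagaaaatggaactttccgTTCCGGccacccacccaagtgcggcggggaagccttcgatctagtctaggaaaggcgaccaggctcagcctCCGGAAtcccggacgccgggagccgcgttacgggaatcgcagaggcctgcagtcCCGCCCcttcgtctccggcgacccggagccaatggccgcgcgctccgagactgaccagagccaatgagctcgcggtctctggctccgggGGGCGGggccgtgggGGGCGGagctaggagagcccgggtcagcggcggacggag
Il5ra, chr6:106698982-106699281, - strand: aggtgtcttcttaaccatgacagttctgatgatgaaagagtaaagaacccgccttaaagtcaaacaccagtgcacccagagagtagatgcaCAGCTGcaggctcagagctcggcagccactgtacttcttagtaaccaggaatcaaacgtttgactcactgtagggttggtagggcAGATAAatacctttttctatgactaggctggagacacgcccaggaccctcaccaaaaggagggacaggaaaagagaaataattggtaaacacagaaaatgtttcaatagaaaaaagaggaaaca
The 1 kb around the Il6st start had a GC content of 68.6% and a CpG ratio of 0.83, and its promoter held 3 matches to GGGCGG and 2 to CCGGAA. The Il5ra start had a GC content of 40.6% and a ratio of 0.22. Its promoter held CAGCTG and AGATAA once each. For Il4i1, in contrast, the RefSeq start lay inside the GENCODE model, 11057 bp from its nearest peak and away from the one at Atf5 and Nup62.

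The signal transducers that act below these receptors had a peak at most of their starts. Of a list of 19 JAK, STAT and adaptor genes, 16 had a peak at a start, and all 19 had one in the window, where all coding genes stood at 46.9% and 70.1%. Those without a peak at a start were Tyk2, Stat4 and Irak3, with the nearest at 3646, 2963 and 14672 bp. Peaks at the start of Jak1, Jak3, Stat3, Myd88 and Traf3ip2, the adaptor of IL-17 receptors, measured 1068, 846, 1085, 1040 and 870 bp. Of 11 partner cytokines and chains without an interleukin symbol, 2 had a peak at a start, also to be read against 46.9%. These were Crlf2, a chain of the TSLP receptor, with 2171 bp, and Osm with 1903 bp. All 11 had a peak in the window, against 70.1% of coding genes. The beta chain Csf2rb, which pairs with Il3ra and Il5ra, and Csf2rb2, which pairs with Il3ra, had none at a start. Their nearest peaks lay at 4815 and 11891 bp. As a check of the line's label, 9 of 10 annotated pre-T marker genes had a peak at a start (Cd3d had its nearest at 1119 bp), against 0 of 5 B-cell and 0 of 5 myeloid markers and 46.9% of coding genes.

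Motifs were counted in the central 300 bp of each peak in the ligand and receptor windows, on both strands. For RBPJ the string searched was TGGGAA. For factors of the SP family it was GGGCGG. The E-box bound by E proteins was written as CAGCTG. For RUNX factors the string searched was TGTGGT. For GATA factors it was AGATAA, and for factors of the ETS family it was CCGGAA. A match is a string of letters and not a bound site. TGGGAA was found in 15 of 80 peaks away from starts (18.8%, interval 11.7 to 28.7) and in 24.7% of all such peaks. The receptor windows had it in 12 of 53 (22.6%) and the ligand windows in 3 of 27 (11.1%, interval 3.85 to 28.1). TGTGGT was found in 35% of the members' peaks away from starts and in 33.0% of all, CAGCTG in 33.8% and 32.7%, AGATAA in 10% and 13.5%, and GGGCGG in 13.8% and 12.4%. CCGGAA was found in 11.2% of the members' peaks and in 6.03% of all, and the lower bound of the members' interval was also 6.03%. The 9 peaks behind this share included the one at the RefSeq start of Il6st, which lies away from every GENCODE start. At starts, where most of the 40 peaks belong to neighbouring genes, GGGCGG was found in 55% and in 60.4% of all, TGGGAA in 20% and 19.1%, CAGCTG in 25% and 18.6%, TGTGGT in 12.5% and 13.6%, AGATAA in 7.50% and 4.73%, and CCGGAA in 27.5% and 25.4%. The other shares of all peaks lay within the members' intervals.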

How the data were processed

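ATAC-Seq was performed on 6 libraries of Beko cells, 3 with GSI and 3 with DMSO, and groups were taken from the labels. According to the methods of the study, trimmed reads were aligned by the authors to mm9 (HISAT2 2.2.1, per the submitters' processing notes), with a single alignment retained for each read. Picard was used against duplicates and MACS2, without input, for the peaks of each library. Peaks conserved in 3 of 6 libraries were retained outside blacklisted regions. A shift of read ends for the transposase is not given in the sources used here. The deposited list holds peak positions in bp, a start and an end, for both treatments together, and the deposited score is 0 for every peak, so it was not used. A peak may thus stem from 1 treatment only, which the list does not record. Read depth was not used here, and intervals cover counting error only.

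Peaks, printed with positions counted from 1, were joined to the GENCODE vM1 annotation of NCBIM37, the assembly of mm9, and promoters came from RefSeq. Distances run from the nearest annotated transcript start to the nearest edge of a peak. CpG content was measured in the 1 kb centred on the 5′ end of the gene. Python 3.11.15, numpy 2.4.6, scipy 1.17.1, pysam 0.24.0 and matplotlib 3.10.9 were used, and distances, windows and motif searches were tested on simulated data. No test was made over the members, since genes are not replicates of a condition.

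Every member with a peak at a start was named, the others were named by group, and the 10 members with most peaks were described, which a tie at 4 peaks extended to 12. Distances, clusters and the RefSeq starts singled out in the text were chosen after their values were seen. The members, the gene lists and the rules were chosen with earlier results of these data known. The symbol Ptcra of the pre-T list was not matched. RefSeq starts and the peak density without Il1rapl1 and Il1rapl2 are alternatives chosen after seeing the data.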

Additional observations from a re-analysis of the deposited data

How the results depend on the processing

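The share of members with a peak at a start stayed within 2.44 to 4.88% in ligands and 14.7 to 32.4% in receptors under other distances, start definitions and peak widths, including RefSeq starts, which were chosen after seeing the data. By CpG class, the receptor share was 75% in CpG-rich starts at a ratio of 0.75 and GC of 55%, and 0% in CpG-poor starts with 200 bp to either side. The share of ligands with a peak in the window was 39.0% with peaks of at least 500 bp, and 43.9% without peaks at other genes' starts. The median number of peaks per ligand was 0 with a flank of 10 kb, 2 with 50 kb, 0 with peaks of at least 500 bp and 0 without peaks at other genes' starts. Per receptor it was 1, 3.50, 1 and 1. Peaks per 10 kb, which is another unit, were 0.196 in ligands and 0.161 in receptors, or 0.330 without Il1rapl1 and Il1rapl2, left out after seeing the data. With peaks of at least 500 bp the median distance was 38239 bp in ligands. In whole peaks, TGGGAA was found in 47.5% at starts and 32.5% elsewhere, GGGCGG in 72.5% and 25%, CAGCTG in 55% at starts and TGTGGT in 27.5% at starts. A whole peak offers more bases than its centre. The cause of the other shifts was not tested.

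No paired analysis was possible because library-level values are not in the peak list. For the same reason GSI against DMSO was not run and leaving out single replicates was not run. Absence of a peak means that none passed the authors' rule, and the read depth of the libraries was not used here.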
